A study of Rattus norvegicus with 24 samples.

Results

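Ubiquitin-conjugating enzymes (E2s) are the middle step of the cascade that tags proteins with ubiquitin, and the RNA levels of their genes were described here in the tibialis anterior (TA) muscle of aged rats. The members were all gene symbols that begin with Ube2 followed by a letter, and where a symbol had several rows in the table, the row with the highest mean was used. This rule, which uses names and no measured difference, gave 30 genes of 13458 symbols, and all 30 were above 0 in enough limbs to be tested. Of these, 21 act mainly with ubiquitin, 3 serve the cell cycle or DNA repair, 4 carry ubiquitin-like proteins, and 2 (Ube2v1 and Ube2v2) resemble E2s but lack the catalytic cysteine. Ube2e1, Ube2o, Ube2q2 and Ube2w were not analysed here.

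The animals were male Fischer 344 rats aged 23 ± 1 months, and 3 rats were used per condition. In 9 rats, the common peroneal nerve of the left leg was silenced with tetrodotoxin (TTX), a sodium channel blocker, delivered by an implanted pump. The left TA was collected after 6 to 7 days of TTX (atrophy), after 9 further days once the TTX had run out (recovery), or after that interval and 5 to 6 days of renewed TTX (repeated atrophy). The right TA of the same 9 rats, which received no TTX, served as control, so that control limbs come from animals given TTX at the nerve of the other leg. A further 3 rats had sham surgery without TTX, and their left and right TA are called sham left and sham right, for 24 limbs of 12 rats in all. By the study's methods there was 1 sham rat for each of the 3 collection times, so the sham limbs are treated here as 1 group although each stands for a different time. Muscle homogenates were sequenced, and for every result a change of RNA per cell and a change in the share of a cell type cannot be told apart.

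An activating enzyme (E1) charges ubiquitin, passes it to the active cysteine of an E2, and a ligase (E3) brings the charged E2 to a substrate. The E1s are few and the E3s many, and the E2 largely sets which kind of ubiquitin chain is built. Chains of different linkage send a protein to the proteasome or serve signalling and DNA repair. In skeletal muscle the cascade is best known for the ligases MuRF1 (Trim63) and atrogin-1 (Fbxo32), which mark contractile and other proteins for degradation when a muscle is unloaded, denervated or starved. Separate E2s load ubiquitin-like proteins such as NEDD8 and ISG15.

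Promoter sequences are shown for 3 members that passed the test after repeated atrophy in every scaling and with the animal as a block: Ube2n and Ube2z, which rose, and Ube2ql1, which fell. Each sequence is the 250 bases before the transcription start, 5′ to 3′ on the strand of the gene, in the GRCr8 build of RefSeq, while the expression table uses rn7. Capitals mark the letters TGACNNNGC, the core of the antioxidant response element, on either strand.
Ube2n, chr7:32040959-32041208, plus strand: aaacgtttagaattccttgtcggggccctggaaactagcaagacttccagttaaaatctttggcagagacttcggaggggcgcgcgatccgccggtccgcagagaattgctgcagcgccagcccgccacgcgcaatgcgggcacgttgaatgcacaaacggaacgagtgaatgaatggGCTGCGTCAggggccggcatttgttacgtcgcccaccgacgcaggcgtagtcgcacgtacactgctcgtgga
Ube2z, chr10:81513642-81513891, minus strand: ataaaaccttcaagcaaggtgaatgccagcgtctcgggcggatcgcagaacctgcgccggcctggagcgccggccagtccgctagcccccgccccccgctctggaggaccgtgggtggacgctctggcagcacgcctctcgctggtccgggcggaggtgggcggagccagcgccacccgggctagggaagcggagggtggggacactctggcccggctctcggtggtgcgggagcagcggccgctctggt
Ube2ql1, chr1:35377014-35377263, plus strand: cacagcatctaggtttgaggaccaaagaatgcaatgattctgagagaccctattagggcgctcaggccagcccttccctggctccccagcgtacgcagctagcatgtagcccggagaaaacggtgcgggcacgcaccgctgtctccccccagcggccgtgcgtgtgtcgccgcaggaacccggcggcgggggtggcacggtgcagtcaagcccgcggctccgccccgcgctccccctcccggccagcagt
The windows of Ube2z and Ube2ql1 held none of 4 motifs searched on both strands over 300 bases (250 before the start and 50 after it), and that of Ube2n held 1 match. Promoters were matched for 26 of the 30 members, Ube2d4 by a synonym and the others by symbol. TGACNNNGC occurred in 7 of the 26 (26.9%) against 12.1% of 33469 rat promoters, and CCAAT in 8 (30.8%) against 37.5%. TTTGAA, the cell cycle homology region, occurred in 2 (7.69%) against 18.3%, and the FoxO motif GTAAACA in none against 3.78%. None of these 4 motifs contains another. These are counts of letters in a window and not of bound sites.

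Values are CPM (reads of a gene among 1000000 counted) as deposited, and depth was 18.9 to 30.9 M reads per limb (median 26.1 M). Differences are log2 fold changes (log2 FC) of CPM + 1 from limma. To pass, a gene needed a 1.2-fold difference in either direction and an adjusted p (Benjamini-Hochberg, over every row) no higher than 0.05. The 10 most abundant genes took 24.3% to 32.7% of the CPM of a control limb but 13.0% to 25.6% after atrophy and 15.6% to 19.2% after repeated atrophy. Over all rows tested, atrophy limbs had a median log2 FC of 0.22, recovery limbs 0.02 and repeated atrophy limbs 0.20. Values called rescaled were first divided by a library factor from trimmed means of log ratios, and are therefore relative to the bulk of genes, with medians of 0.00, 0.01 and −0.01. The library of atrophy replicate 2 stood apart: 6 genes that rise in nerve-silenced fibres (among them Chrna1, Chrnd, Chrng, Myog and Ncam1) summed to 420 CPM in it, against 2500 and 2308 CPM in the other atrophy limbs, 58.2 to 415 CPM in control, 81.9 to 435 CPM in sham limbs and 2082 to 4133 CPM after repeated atrophy. Markers of muscle fibres (8 genes, none at 0) summed to 68311 to 124650 CPM in control (median 103690) and 95330 to 107140 CPM in recovery, but to 55354 to 77247 CPM after atrophy (median 62133) and 65197 to 79187 CPM after repeated atrophy (median 70789). Of the 8, 1 passed lower after atrophy, and 1 higher and 1 lower after repeated atrophy. The sham limbs covered 49689 to 110820 CPM. The part of this lower sum in the E2 differences after atrophy and repeated atrophy was not tested.

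In control limbs, levels per kilobase of transcript covered a wide range. Ube2b, an E2 of the N-degron pathway long studied in muscle wasting, was the most abundant at 252 CPM per kilobase, followed by Ube2d1 at 238, Ube2d3 at 163 and Ube2r2 at 133 CPM per kilobase. Ube2d1 to Ube2d3 belong to a family that works with a wide set of ligases, and Ube2r2 serves the cullin ligases. Ube2b and Ube2d1 were within each other's spread (528 ± 116 CPM over 2096 bases and 323 ± 72.2 CPM over 1360 bases). At the other end, Ube2t, Ube2d4, Ube2c, Ube2q2l and Ube2l6 had 0.022, 0.121, 0.234, 0.363 and 1.21 CPM per kilobase in control, and Ube2ql1 was next at 6.19.

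After atrophy, 12 of the 30 Ube2 genes rose and 1 fell (43.3%). Of all 14031 rows tested, 22.6% passed, 20.3% higher and 2.33% lower. The genes that rose included Ube2d3, Ube2n, Ube2h, Ube2d2, Ube2j1, Ube2z, Ube2e2, Ube2v2, Ube2k, Ube2l3 and Ube2f, with log2 FC from 1.00 to 0.43, and the gene that fell was Ube2ql1. The median log2 FC of the 30 was 0.39 as deposited and 0.13 when rescaled. When rescaled, only Ube2ql1 passed, against 9.69% of all rows (4.72% higher and 4.97% lower). With the animal as a block, which sets each left limb against the right limb of the same rat, no member passed and 0% of all rows did. An unadjusted p below 0.05 was seen for 10 of the 30 members and 2678 of the 14031 rows. Without replicate 2, 17 members passed (16 higher and 1 lower) and 31.5% of all rows did. Without replicate 1 or replicate 3, which leaves replicate 2 as 1 of 2 limbs, no member passed, and 4 and 0 of all rows did. By role, the 12 that rose were 9 of the 21 ubiquitin E2s, 2 of the 4 E2s of ubiquitin-like proteins and 1 of the 2 variants.

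After repeated atrophy, 13 of the 30 genes rose and 1 fell (46.7%), against 34.3% of all rows (28.1% higher and 6.24% lower). Those that rose included Ube2n, Ube2z, Ube2d3, Ube2l6, Ube2e2, Ube2h, Ube2v2, Ube2a, Ube2l3, Ube2k, Ube2r2 and Ube2m, with log2 FC from 1.10 to 0.35, and Ube2ql1 fell. The median log2 FC of the 30 was 0.36 as deposited and 0.04 when rescaled. When rescaled, 4 of 30 passed (13.3%), among them Ube2n and Ube2z higher and Ube2ql1 lower, against 25.2% of all rows (13.2% higher and 12.1% lower). With the animal as a block, 11 members passed (36.7%) against 27.1% of all rows. With the block and rescaling together, 6 did (20%), among them Ube2n, Ube2z and Ube2h higher and Ube2ql1 and Ube2e3 lower, against 21.1% of all rows. Without replicate 1, 10 members passed against 31.9% of all rows (Ube2e2, Ube2v2, Ube2a, Ube2r2 and Ube2m no longer did, and Ube2d2 was added). Without replicate 3, 14 did against 26.9% (Ube2f in place of Ube2m), and without replicate 2, 7 did against 21.6% (among them Ube2n, Ube2z, Ube2l3, Ube2l6 and Ube2e2 higher and Ube2ql1 lower).

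After recovery, 3 of the 30 genes were higher (Ube2n, Ube2f and Ube2t) and 1 was lower (Ube2s), 13.3% against 7.73% of all rows (4.4% higher and 3.33% lower). The median log2 FC of the 30 was 0.04. When rescaled, Ube2n and Ube2t were higher and Ube2s, Ube2q1 and Ube2j1 lower, 16.7% against 12.1% of all rows (6.09% higher and 6.02% lower). With the animal as a block none passed, against 0.0641% of all rows. An unadjusted p below 0.05 was seen for 6 of the 30 members and 2521 of the 14031 rows. Leaving out any 1 of the 3 recovery limbs left Ube2t as the only member past the threshold, with 1.48%, 3.48% and 2.29% of all rows past it without replicate 1, 2 and 3.

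**Figure D1:**
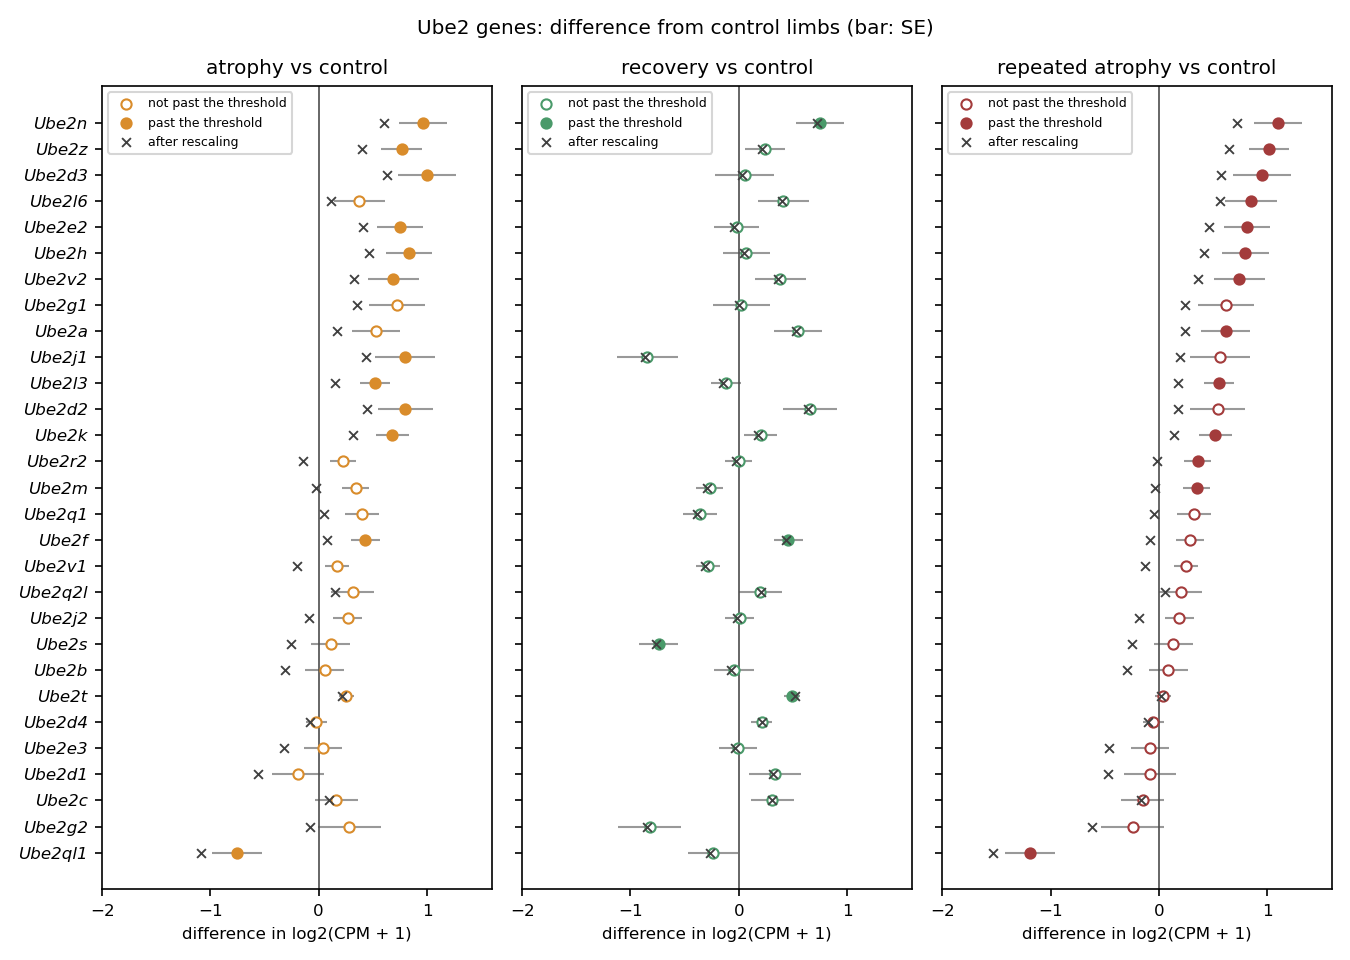
Difference from the control limbs in log2(CPM + 1) for 29 Ube2 genes after atrophy, recovery and repeated atrophy, with the SE as bars. Filled points passed the threshold (12, 4 and 13 genes), open points did not, and crosses give the rescaled difference, which lies to the left of the point for every gene after atrophy and repeated atrophy.

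Ube2n, the E2 that builds signalling and DNA repair chains together with a Ube2v partner, had the largest rise after repeated atrophy. Its level was 31.0 to 67.3 CPM in control (median 40.7 CPM), 122, 52.5 and 84.2 CPM after atrophy, 72.3, 62.7 and 75.7 CPM after recovery and 85.1, 107 and 78.9 CPM after repeated atrophy. All repeated atrophy limbs lay above all control limbs, and the atrophy limb at 52.5 CPM was replicate 2, within the control range. The log2 FC was 0.96 ± 0.22 (SE) after atrophy (adjusted p = 0.00907), 0.75 ± 0.22 after recovery (adjusted p = 0.0432) and 1.10 ± 0.22 after repeated atrophy (adjusted p = 0.0011). It rescaled to 0.60 (adjusted p = 0.052), 0.73 (0.0206) and 0.72 (0.00939), and with the block the adjusted p was 0.228, 0.22 and 0.0123. Within animals, the left limb exceeded the right in 2 of 3 atrophy rats, 3 of 3 recovery rats and 3 of 3 repeated atrophy rats, where the 3 differences were 0.82, 1.66 and 1.32 on the log2 scale.

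Of the partners of Ube2n, Ube2v2 passed after both bouts of silencing and Ube2v1 did not. Ube2v2, which pairs with it outside signalling by the NF-kappaB pathway, was at 46.2 to 107 CPM in control, 153, 99.1 and 90.9 CPM after atrophy, 93.4, 84.9 and 92.3 CPM after recovery and 135, 141 and 81.2 CPM after repeated atrophy. The groups overlapped in each comparison with control, and the log2 FC was 0.69 (adjusted p = 0.0423, block 0.273), 0.39 (0.322) and 0.74 (0.02, block 0.0295), or 0.32, 0.36 and 0.36 when rescaled (adjusted p = 0.419, 0.334 and 0.294). Ube2v1, which pairs with Ube2n in that signalling, was at 186 ± 15 CPM in control and passed in no comparison with control (log2 FC 0.17, −0.29 and 0.25, adjusted p = 0.288, 0.112 and 0.0863). Without 1 limb, Ube2v2 passed in 1 of 3 fits after atrophy (adjusted p = 0.0435 to 0.306) and in 1 of 3 after repeated atrophy (0.00997 to 0.129). The difference between the partners was not tested.

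Ube2z, which accepts ubiquitin only from the E1 Uba6, was at 26.1 to 45.7 CPM in control, 71.9, 40.5 and 83.2 CPM after atrophy, 45.1, 37.1 and 47.9 CPM after recovery and 68.3, 78.9 and 77.2 CPM after repeated atrophy. Its repeated atrophy limbs formed a narrow group above every control limb, and again only replicate 2 of the atrophy limbs was in the control range. The log2 FC was 0.77 ± 0.19 (adjusted p = 0.0106, block 0.189, rescaled 0.40 with 0.0657) after atrophy and 1.02 ± 0.19 (adjusted p = 0.000602, block 0.00465, rescaled 0.64 with 0.0021) after repeated atrophy. After recovery it was 0.24 (adjusted p = 0.443). The left limb was higher in 9 of 9 TTX rats, by 0.02 to 0.85 after atrophy, 0.07 to 0.62 after recovery and 0.90 to 1.36 after repeated atrophy on the log2 scale.

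Ube2ql1, a little studied relative of Ube2q1, was the only member that fell after either bout of silencing as deposited. Its level was 9.69 to 21.6 CPM in control (median 17.4 CPM), 10.5, 11.1 and 6.41 CPM after atrophy, 12.0, 14.1 and 14.2 CPM after recovery and 4.61, 9.58 and 6.07 CPM after repeated atrophy. Each repeated atrophy limb was below the lowest control limb, while the atrophy and recovery limbs overlapped with control. The log2 FC was −0.75 ± 0.23 (adjusted p = 0.0273, block 0.257), −0.24 ± 0.23 (adjusted p = 0.551) and −1.19 ± 0.23 (adjusted p = 0.000962, block 0.00465), and −1.09, −0.27 and −1.53 when rescaled (adjusted p = 0.0176, 0.517 and 0.000353). The left limb was lower in 9 of 9 TTX rats, by log2 differences of −1.49, −0.94 and −1.47 after repeated atrophy, and also in 3 of 3 sham rats, where the differences were −0.03 to −0.29. Its relative Ube2q1 passed in none of the comparisons with control as deposited (25.6 ± 4.13 CPM in control, log2 FC 0.40, −0.36 and 0.32, adjusted p = 0.0744, 0.165 and 0.128). Ube2q1 did pass after atrophy when only rows with a mean of at least 10 CPM were fitted.

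**Figure D2:**
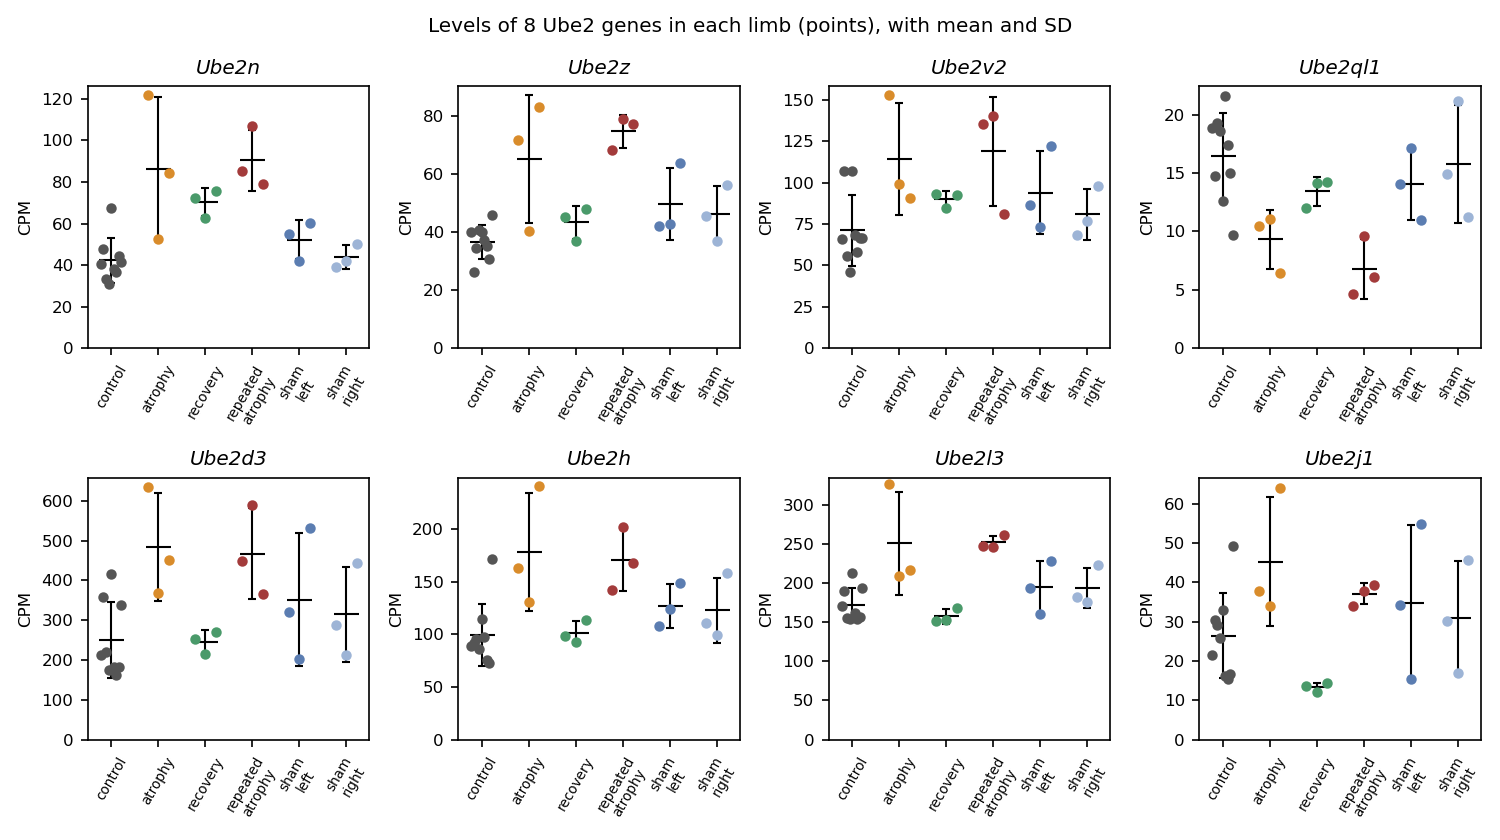
CPM of 8 Ube2 genes in each of the 24 limbs, by group, with the group mean and SD (n = 9 in control and 3 elsewhere). The repeated atrophy limbs lie outside the control range for Ube2n, Ube2z, Ube2l3 and, below it, Ube2ql1, and 1 atrophy limb (replicate 2) lies nearest to control for Ube2n and Ube2z.

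The Ube2d family, whose enzymes work with many ligases including MuRF1 in the test tube, had members that passed (Ube2d3 and Ube2d2) and members that did not (Ube2d1 and Ube2d4). Ube2d3 was at 163 to 416 CPM in control, 634, 369 and 450.5 CPM after atrophy, 254, 215 and 270.4 CPM after recovery and 449, 589 and 364 CPM after repeated atrophy. The ranges overlapped with control, with log2 FC 1.00 ± 0.27 after atrophy (adjusted p = 0.0163, block 0.288, rescaled 0.63 with 0.0942) and 0.95 ± 0.27 after repeated atrophy (adjusted p = 0.0106, block 0.0385, rescaled 0.57 with 0.0834). Without replicate 2, it no longer passed after repeated atrophy, the adjusted p ranging from 0.0155 to 0.087 over the fits without 1 limb. Ube2d2 was at 13.0 to 35.3 CPM in control, 47.7, 33 and 33.3 CPM after atrophy, 33.2, 34.5 and 33.8 CPM after recovery and 22.6, 46.7 and 28.5 CPM after repeated atrophy (log2 FC 0.80, 0.66 and 0.54, adjusted p = 0.031, 0.113 and 0.108, with 0.389, 0.247 and 0.177 with the block).

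Ube2d1 was the second most abundant member, at 212 to 465 CPM in control. It had 341, 380.0 and 162 CPM after atrophy, 419, 404 and 378 CPM after recovery and 218, 349 and 349.6 CPM after repeated atrophy, all but the atrophy limb at 162 CPM within the control range. Its log2 FC was −0.19, 0.34 and −0.08 (adjusted p = 0.607, 0.402 and 0.835) and −0.56, 0.31 and −0.47 when rescaled (adjusted p = 0.181, 0.459 and 0.214). Ube2d4 was below 0.5 CPM in all 24 limbs, and its row is an intronless locus that overlaps Evi5 on the other strand.

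Ube2b and its near twin Ube2a act with the N-degron ligases Ubr1 and Ubr2 and with the histone ligases Rnf20 and Rnf40. Ube2b was at 418 to 752 CPM in control (median 487 CPM), 572, 616 and 442 CPM after atrophy, 512, 522 and 475 CPM after recovery and 587, 648 and 440 CPM after repeated atrophy. Every one of these limbs lay within the control range, and the log2 FC was 0.06 ± 0.18, −0.04 ± 0.18 and 0.09 ± 0.18 (adjusted p = 0.86, 0.917 and 0.761). When rescaled it was −0.31, −0.07 and −0.29 (adjusted p = 0.346, 0.864 and 0.314). Ube2a rose after repeated atrophy from 33.4 ± 10.3 to 50.7 ± 10.2 CPM (log2 FC 0.62 ± 0.22, adjusted p = 0.0401, block 0.0737, rescaled 0.24 with 0.452). After atrophy and recovery its log2 FC was 0.53 and 0.55 (adjusted p = 0.0942 and 0.136).

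Ube2h, Ube2k, Ube2l3 and Ube2e2 rose after both bouts of silencing as deposited, and none of the 4 passed after atrophy with the block or when rescaled. Ube2h, the E2 of the CTLH ligase of Maea, Rmnd5a and Wdr26, was at 73.2 to 172 CPM in control, 164, 131 and 241 CPM after atrophy, 98.8, 92.7 and 114 CPM after recovery and 143, 202 and 168 CPM after repeated atrophy. The log2 FC was 0.83 ± 0.21 (adjusted p = 0.0131, block 0.188, rescaled 0.47 with 0.0735), 0.07 (0.88) and 0.80 ± 0.21 (0.00767, block 0.00711, rescaled 0.42 with 0.0656), and 1 control limb, the right limb of atrophy replicate 3, was at 172 CPM, above 2 of the 3 repeated atrophy limbs. Within animals it was higher on the left in 3 of 3 repeated atrophy rats, by 0.62, 1.07 and 0.95.

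Ube2l3, which serves ligases that carry ubiquitin on a cysteine, such as parkin and Arih1, had 154 to 213 CPM in control, 326, 209 and 216 CPM after atrophy and 247, 246 and 261 CPM after repeated atrophy. The atrophy limbs overlapped with control (log2 FC 0.52 ± 0.14, adjusted p = 0.0155, block 0.313, rescaled 0.15 with 0.446), and it passed in 1 of the 3 fits without 1 atrophy limb (adjusted p = 0.00636 to 0.183). The repeated atrophy limbs did not overlap with control (log2 FC 0.56 ± 0.14, adjusted p = 0.00508, block 0.0335, rescaled 0.17 with 0.312). Ube2k, which builds degradative chains on its own, rose after atrophy without overlap (69.7 ± 12.2 to 112 ± 20.2 CPM, log2 FC 0.68 ± 0.15, adjusted p = 0.00892, block 0.193, rescaled 0.32 with 0.158) and after repeated atrophy (log2 FC 0.52, adjusted p = 0.0135, block 0.0361, rescaled 0.14 with 0.5). Ube2e2 was at 5.25 to 8.89 CPM in control, 12.41, 11.6 and 17.7 CPM after atrophy, 5.62, 8.10 and 9.53 CPM after recovery and 20.0, 11.1 and 13.2 CPM after repeated atrophy. It was the only member whose 3 atrophy limbs all exceeded control and whose 3 repeated atrophy limbs did too (log2 FC 0.75 and 0.81, adjusted p = 0.0184 and 0.00605, block 0.179 and 0.0726, rescaled 0.41 and 0.47 with 0.24 and 0.129). Its relative Ube2e3 had log2 FC of 0.04, −0.01 and −0.08 (adjusted p = 0.901, 0.987 and 0.769).

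Of the E2s of ubiquitin-like proteins, Ube2m and Ube2f load NEDD8 onto cullins, Ube2m with Rbx1 and Ube2f with Rnf7. Ube2m was at 127 to 182 CPM in control, 182, 168 and 209 CPM after atrophy, 129.9, 110 and 126 CPM after recovery and 189.8, 178 and 193 CPM after repeated atrophy. Its log2 FC was 0.34 (adjusted p = 0.056), −0.27 (0.192) and 0.35 (0.0366, block 0.131), and −0.02, −0.29 and −0.03 when rescaled (adjusted p = 0.918, 0.082 and 0.872), so its direction after atrophy and repeated atrophy depended on the scaling. Ube2f was above the control range after atrophy (22.9 ± 2.24 to 31.1 ± 3.28 CPM, log2 FC 0.43, adjusted p = 0.0273, block 0.276, rescaled 0.08 with 0.791) and in recovery (32.0, 31.4 and 31.5 CPM, log2 FC 0.46, adjusted p = 0.0415, block 0.179, rescaled 0.44 with 0.0551). After repeated atrophy it had a log2 FC of 0.29 (adjusted p = 0.101). Ube2l6, the E2 for ISG15, was low, at 1.17 to 2.41 CPM in control, 4.72, 1.27 and 2.25 CPM after atrophy, 1.67, 2.41 and 3.99 CPM after recovery and 3.43, 3.87 and 4.27 CPM after repeated atrophy, where no limb overlapped with control (log2 FC 0.85 ± 0.24, adjusted p = 0.00981, block 0.0417, rescaled 0.57 with 0.074). It no longer passed with the sham right limbs, at 2.08 to 6.44 CPM, added to control (log2 FC 0.68, adjusted p = 0.089), nor with a pseudocount of 10, where the difference was under 1.2-fold. It was at 1.45 to 9.55 CPM in the sham left limbs, which held the highest value of all limbs.

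Ube2g1, Ube2g2, Ube2j1 and Ube2j2 take part in degradation of cullin substrates or of proteins from the endoplasmic reticulum. Ube2j1, anchored in that membrane, had the largest difference between recovery and atrophy limbs. It was at 15.3 to 49.3 CPM in control, 37.8, 34.0 and 64.1 CPM after atrophy, 13.7, 12.1 and 14.3 CPM after recovery and 34.1, 37.8 and 39.3 CPM after repeated atrophy. All recovery limbs lay below all control limbs and below all atrophy and repeated atrophy limbs. The log2 FC against control was 0.79 ± 0.28 (adjusted p = 0.047, block 0.253), −0.84 ± 0.28 (0.0677) and 0.57 ± 0.28 (0.127), and when rescaled 0.44 (0.247), −0.87 (0.0239) and 0.20 (0.596). The right limbs of the 3 recovery rats were themselves at 15.3 to 16.8 CPM, the lowest of the 9, and within these rats the left limb was lower by only 0.22 to 0.32 on the log2 scale (block adjusted p = 0.449).

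Ube2g1 was at 106 to 258 CPM in control, 287, 221 and 235 CPM after atrophy, 147, 151 and 157 CPM after recovery and 225, 299 and 181 CPM after repeated atrophy, and it passed in no comparison with control (log2 FC 0.72, 0.02 and 0.62, adjusted p = 0.0529, 0.97 and 0.0722). It did pass after atrophy when only rows with a mean of at least 10 CPM were fitted. Ube2g2 had 54.5 ± 10.4 CPM in recovery against 103 ± 44.8 CPM in control (log2 FC −0.82, adjusted p = 0.0851), and log2 FC of 0.28 and −0.24 after atrophy and repeated atrophy (adjusted p = 0.524 and 0.575). Ube2j2 passed in none (42.4 ± 4.94 CPM in control, log2 FC 0.27, 0.01 and 0.19, adjusted p = 0.148, 0.975 and 0.3). Ube2r2, a paralog of Cdc34, rose after repeated atrophy from 176 ± 19.2 to 225 ± 20.0 CPM (log2 FC 0.36, adjusted p = 0.0305, block 0.0443), a difference of −0.02 when rescaled (adjusted p = 0.94).

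**Figure D3:**
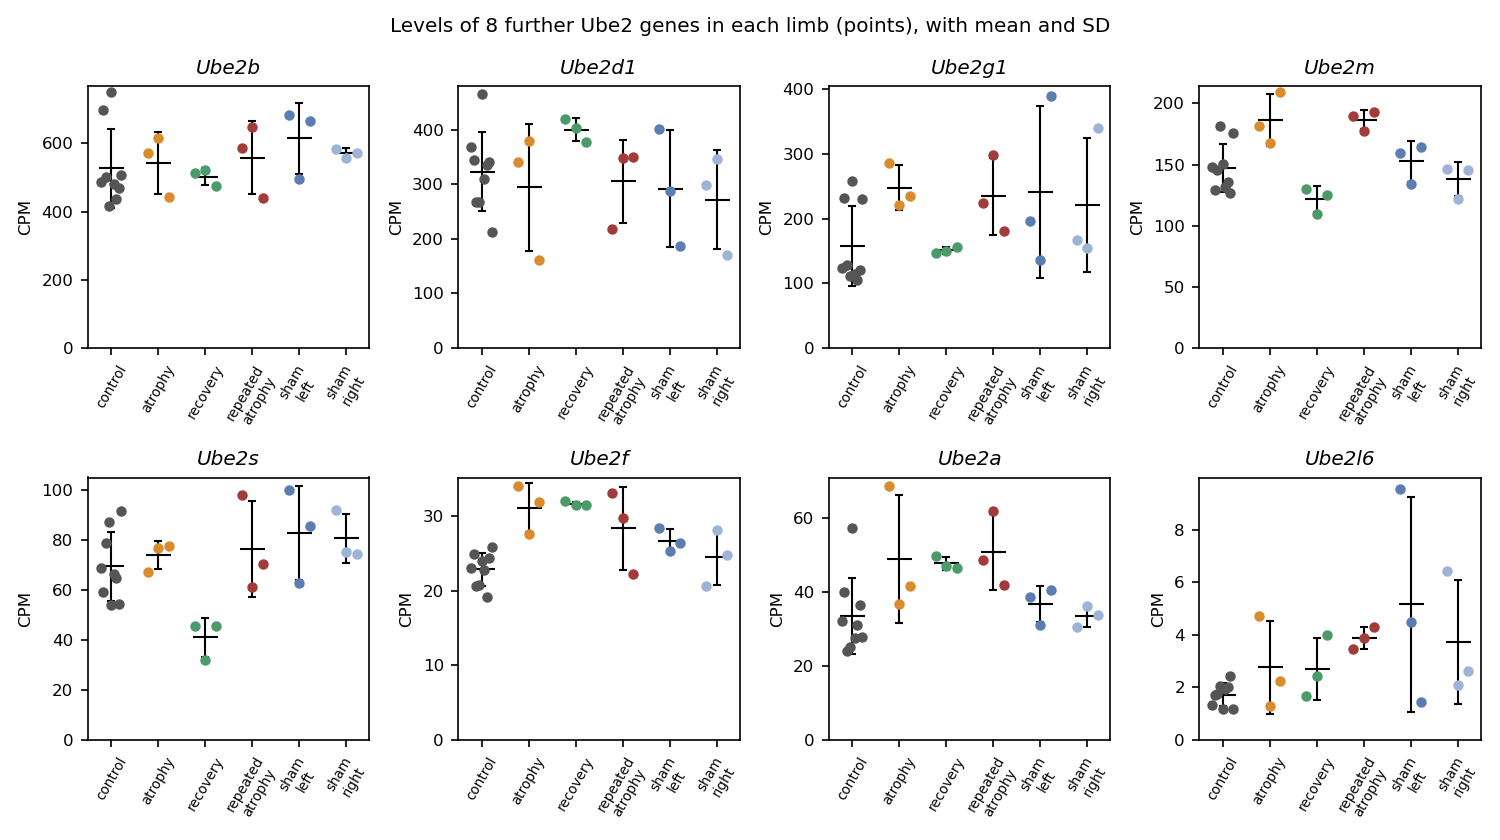
CPM of 8 further Ube2 genes in each of the 24 limbs, by group, with the group mean and SD (n = 9 in control and 3 elsewhere). Ube2s lies below all control limbs in the 3 recovery limbs, Ube2f lies above them in atrophy and recovery, and Ube2b has every TTX-treated limb inside the control range.

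Of the 3 cell cycle and DNA repair members, Ube2s was lower and Ube2t higher in recovery. With all limbs and a pseudocount of 1, none passed after atrophy or repeated atrophy. Ube2s, which extends chains for the anaphase-promoting complex, was at 54.1 to 91.9 CPM in control, 67.4, 77.0 and 77.6 CPM after atrophy, 45.6, 32.0 and 45.6 CPM after recovery and 98.2, 61.3 and 70.3 CPM after repeated atrophy. It was lower in recovery without overlap (log2 FC −0.74 ± 0.18, adjusted p = 0.0188, block 0.244, rescaled −0.77 with 0.0156), and 0.11 and 0.13 after atrophy and repeated atrophy (adjusted p = 0.706 and 0.619). Ube2c, which starts those chains, was at or below 0.69 CPM in control, 0.85, 0.15 and 0.03 CPM after atrophy, 0.35, 0 and 1.22 CPM after recovery and 0.13, 0.04 and 0 CPM after repeated atrophy, and passed in none (adjusted p = 0.61, 0.35 and 0.625).

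Ube2t, the E2 of the Fanconi anaemia ligase Fancl, was at 0 to 0.07 CPM in control and 0.61, 0.25 and 0.49 CPM in recovery. Its log2 FC on the CPM + 1 scale was 0.49 ± 0.07 (adjusted p = 0.00113, block 0.0989, rescaled 0.52 with 0.000524). After atrophy it had 0.27, 0.19 and 0.20 CPM, also above control but under the 1.2-fold limit on the CPM + 1 scale (log2 FC 0.26, adjusted p = 0.019), and after repeated atrophy 0, 0 and 0.15 CPM. After atrophy Ube2t did pass with a pseudocount of 0.1 and without atrophy replicate 2, at levels that are low in every limb. It reached 0.89 CPM in 1 sham left and 0.65 CPM in the right limb of the same rat. Markers of proliferating cells summed to 8.55 to 15.6 CPM in recovery and 0.55 to 7.15 CPM in control (3 of 8 higher), and to 40.5 and 39.4 CPM in the highest sham left and sham right limbs. In recovery, markers of fibroblasts summed to 1079 to 2008 CPM against 203 to 560 CPM in control (5 of 6 higher), and those of macrophages to 87.9 to 176 CPM against 31.1 to 105 CPM (4 of 8 higher). The part of these cells in the recovery levels of Ube2t, Ube2n, Ube2f and Ube2s was not tested.

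Recovery limbs differed from atrophy limbs in 9 Ube2 genes, all lower in recovery (30%), against 17.9% of all rows (14.5% lower and 3.34% higher). These included Ube2j1, Ube2g2, Ube2s, Ube2e2, Ube2q1, Ube2l3, Ube2m and Ube2v1, with log2 FC from −1.64 ± 0.34 (Ube2j1, adjusted p = 0.00802) to −0.46 ± 0.14 (Ube2v1, adjusted p = 0.0285). When rescaled, 2 passed, Ube2j1 lower (−1.31, adjusted p = 0.013) and Ube2t higher (0.31, adjusted p = 0.0286), against 10.7% of all rows. With the block, which here compares left-right differences between rats, none passed (adjusted p of 0.592 or more for the 9 genes as deposited), against 0.0143% of all rows. The unadjusted p was under 0.05 for 2 members and for 1117 of the 14031 rows. The count of members past the threshold changed with single limbs, and so did that over all rows. No member passed without atrophy replicate 3 (1.74% of all rows), 2 did without recovery replicate 2 (4.05%), 4 without atrophy replicate 1 (9.55%) or recovery replicate 1 (5.31%), and 12 without atrophy replicate 2 (24.9%). Both this comparison and those with control use the same atrophy and recovery limbs, and none is independent of the others. As deposited, 5 of 6 fibroblast markers were higher in recovery than in atrophy limbs, and 0 of 8 macrophage and 0 of 8 proliferating cell markers passed. The part of these cells in the E2 differences was not tested.

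Repeated atrophy limbs differed from recovery limbs in 13 genes (43.3%), 11 higher and 2 lower, against 27.2% of all rows (21% higher and 6.29% lower). The higher ones included Ube2j1 (1.41 ± 0.34, adjusted p = 0.0068), Ube2d3, Ube2s, Ube2e2, Ube2z, Ube2h, Ube2q1, Ube2l3, Ube2m and Ube2v1, and Ube2ql1 (−0.94 ± 0.28, adjusted p = 0.0199) and Ube2t (−0.46, adjusted p = 0.00225) were lower. When rescaled, Ube2j1 was higher and Ube2f, Ube2t and Ube2ql1 lower, against 21.7% of all rows. With the block none passed (adjusted p of 0.157 or more for the 13 genes as deposited), against 0.0855% of all rows. An unadjusted p below 0.05 was seen for 7 members and for 2760 of the 14031 rows. Without recovery replicate 2, 5 passed (Ube2j1, Ube2m, Ube2v1, Ube2l3 and Ube2t), against 15% of all rows. Markers were lower than in recovery for 4 of 6 fibroblast, 3 of 8 macrophage and 3 of 8 proliferating cell genes. The part of these cells was not tested.

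Repeated atrophy and atrophy limbs did not differ past the threshold for any member, as for 0.0356% of all rows. The log2 FC ranged from −0.52 (Ube2g2, SE 0.36) to 0.48 (Ube2l6, SE 0.29) with a median of −0.03, and 1 member had an unadjusted p below 0.05, as did 884 of the 14031 rows. For Ube2n, Ube2z and Ube2ql1 it was 0.14 ± 0.27, 0.26 ± 0.23 and −0.43 ± 0.28. That none passed does not show that the first and second bout acted alike, given SEs of this size with 3 limbs a group.

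**Figure D4:**
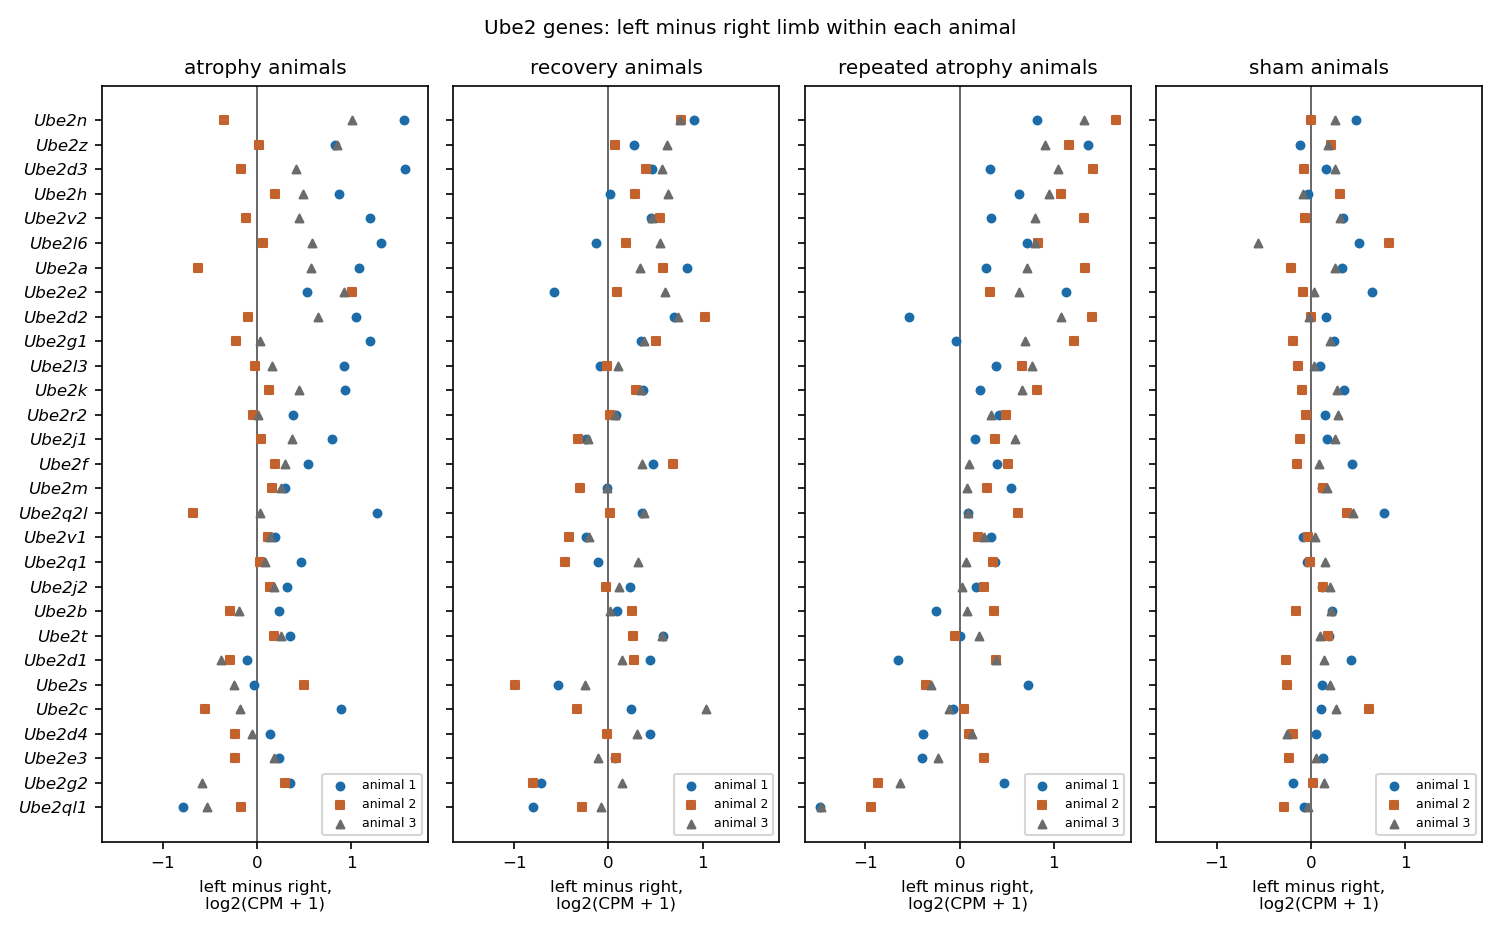
Left minus right limb in log2(CPM + 1) for 29 Ube2 genes in each of the 3 rats of a condition, sorted by the mean after repeated atrophy. The 3 repeated atrophy rats are above 0 for Ube2n, Ube2z and the genes next to them at the top and below 0 for Ube2ql1 at the bottom, while those of Ube2e3 and Ube2g2 lie on both sides, atrophy animal 2 lies near 0 or on the other side for many genes, and the sham rats lie on both sides of 0 for most genes, but all 3 are above 0 for Ube2c, Ube2j2, Ube2m, Ube2q2l and Ube2t and below 0 for Ube2ql1.

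Sham left limbs showed no member past the threshold against the 9 control limbs, nor against the sham right limbs (0% of rows passed in both). Against control, 8 of the 30 members had an unadjusted p below 0.05, all higher (among them Ube2l6, Ube2q2l, Ube2c, Ube2e2, Ube2z, Ube2t and Ube2k), as did 13.8% of all rows, and 4 members and 8.77% of all rows did when rescaled. The median log2 FC of the 30 was 0.31 and that of all rows 0.17. Ube2n was at 54.7, 41.9 and 60.2 CPM in sham left and 38.9, 42.0 and 50.2 CPM in sham right, and Ube2z at 42.0, 42.9 and 63.9 CPM and 45.6, 36.9 and 56.3 CPM. Between the limbs of the sham rats, 24 of the 30 differences were above 0 with a median of 0.11 (0.02 over all rows). All come from the same 3 rats, and without 1 of them the count was 20 of 29, 24 of 30 and 22 of 30. An unadjusted p below 0.05 was seen for 2 members, Ube2q2l among them (log2 FC 0.53, adjusted p = 0.936), and for 576 of 13483 rows.

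Genes that act before the E2s were counted in the same comparisons. Of 10 E1 genes, 4 rose after atrophy (none when rescaled or with the block) and 6 after repeated atrophy (2 when rescaled and 4 with the block). None passed in recovery as deposited or with the block, and 1 was higher when rescaled. The shares of all rows given above for each comparison are the background for these counts and those of the lists that follow. Uba6, the E1 that charges Ube2z, went from 8.98 ± 3.13 CPM in control to 18.9 ± 6.12 CPM after atrophy and 21.5 ± 7.47 CPM after repeated atrophy (log2 FC 1.01 and 1.17, adjusted p = 0.0133 and 0.00242, block 0.339 and 0.0197, rescaled 0.66 and 0.81 with 0.0576 and 0.0103). Nae1 and Uba3, which together charge NEDD8 for Ube2m and Ube2f, had log2 FC of 0.67 and 0.63 after repeated atrophy as deposited (adjusted p = 0.0295 and 0.0198). Uba6 was 1 of the 2 E1 genes that passed when rescaled, so Nae1 and Uba3 did not both pass there.

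Of 11 genes of ubiquitin and ubiquitin-like proteins, 8 rose after atrophy (1 higher and 1 lower when rescaled, none with the block) and 8 after repeated atrophy (3 higher and 1 lower when rescaled, 7 higher with the block). Sumo3 was lower in recovery (log2 FC −0.68, adjusted p = 0.0182, rescaled −0.71 with 0.0104), but not with the block (adjusted p = 0.287). Rps27a, a ribosomal protein made as a fusion with ubiquitin, had the largest difference, from 56.3 ± 12.0 to 152 ± 6.06 CPM after repeated atrophy (log2 FC 1.44 ± 0.19, adjusted p = 8.12e-05, rescaled 1.06). Sumo2, a ubiquitin-like modifier, had a log2 FC of 0.84 (adjusted p = 0.00593, rescaled 0.46 with 0.118).

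E2-like genes with other names, among them Cdc34, the E2 of the SCF ligases, and Atg3 and Ufc1, which carry autophagy and UFM1 proteins, rose in 6 of 7 cases after atrophy (1 when rescaled, none with the block) and 6 of 7 after repeated atrophy (4 when rescaled, 6 with the block). None passed in recovery as deposited or with the block, and 1 was lower when rescaled. Tsg101, a sorting protein with an inactive E2 fold, had the largest difference after repeated atrophy (55.7 ± 10.3 to 119 ± 8.95 CPM, log2 FC 1.10, adjusted p = 0.00016), followed by Birc6 (0.93), Atg3 (0.90) and Cdc34 (0.85).

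Of 32 ligase genes that work with these E2s, 5 rose after atrophy (1 higher and 3 lower when rescaled, none with the block) and 8 after repeated atrophy (4 higher and 3 lower when rescaled, 10 higher with the block). In recovery 6 were lower (8 when rescaled, none with the block). Trim63 ranged from 127 to 1925 CPM in control and had a mean of 1325 ± 931 CPM after atrophy (log2 FC 1.93 ± 0.60, adjusted p = 0.0283, block 1.04 with 0.196, rescaled 1.57 with 0.0858) and 905 ± 450 CPM after repeated atrophy (log2 FC 1.5 ± 0.60, adjusted p = 0.0606, block 0.0188). Fbxo32 passed in neither (log2 FC 1.61 and 1.31, adjusted p = 0.0892 and 0.146). Nedd4 and Wdr26, the latter a subunit of the ligase that uses Ube2h, rose after repeated atrophy (log2 FC 1.19 and 0.91, adjusted p = 0.00117 and 0.00229). In recovery the 6 lower genes included Ubr2 and Ubr4 of the N-degron pathway (log2 FC −0.89 and −0.85, adjusted p = 0.00902 and 0.0376, block 0.107 and 0.213, the latter among those that rose after repeated atrophy) and Syvn1 and Aup1 of degradation from the endoplasmic reticulum (−0.52 and −1.18, adjusted p = 0.0417 and 0.0155, block 0.23 and 0.216).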

How the data were processed

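The deposited table gave the expression of 14271 rows in 27 value columns, of which 24 matched samples and 3 matched none and were not used. The authors deposited CPM values (each column sums to 1000000), although the methods describe a DESeq2 median of ratios. Per the submitters' notes, contaminant reads were removed with Bowtie2 2.2.5 and the rest aligned to rn7 with STAR in Partek Flow; annotation and counting step are not given in the sources used here, and libraries were directional. Low values (below 3 CPM) were whole multiples of 1 step in 88.0% to 89.5% of cases (tolerance 0.03 steps), so depth was read from the step but reads were not recovered and no count test was run. Precision is therefore limited by the number of limbs.

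After 28 duplicate rows were dropped, 14243 rows stayed. Rows above 0 in at least 3 fitted limbs were fitted with limma 3.58.1 (R 4.3.3) as log2(CPM + 1), which understates the change of low genes, with an intensity trend, 1 fit for all TTX groups and control, and Benjamini-Hochberg adjustment over all rows (14031; sham against control 13822; sham left against right, with the animal as a block, 13483). Control was the 9 right limbs of the TTX rats, without a block as in the study. Left and right limbs of a rat are paired by the labels, and their deviations from group means correlated with a mean r of 0.12 over 9 rats (below 0 in 3). Replicates are separate rats. The test was tried before use on simulated counts without an animal effect and without a shift over all rows. That trial therefore does not bear on the block or the rescaling.

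Members and gene lists were chosen with earlier results of these data known. Limb values are printed for 11 of the 12 called members with the largest difference and for Ube2b, Ube2c, Ube2d1, Ube2g1, Ube2m and Ube2n by role, and for Ube2f, Ube2l3 and Ube2t, added after their values were seen. Up to 4 genes are named per pathway list, those with the largest difference after repeated atrophy, and the others named (Sumo3, Ubr2, Ubr4, Syvn1, Aup1 and Ufc1) were chosen after their values were seen. Some genes that the rule or the lists hold are included in counts but not reported here by name. Of the markers of other cells, 1 endothelial gene was lower after repeated atrophy (5 when rescaled, and 1 after atrophy when rescaled) and no Schwann cell or erythroid gene passed. Of 8 proliferating cell markers, 1 was higher after atrophy (sums of 4.59 to 31.8 CPM) and 1 after repeated atrophy (3.77 to 4.93 CPM), and 0 when rescaled. Of 8 muscle fibre markers, 1 was lower after atrophy, and 1 higher and 1 lower after repeated atrophy. Alternatives were pseudocounts of 0.1 and 10, trimmed mean rescaling, quantile normalization, a filter on a mean of 10 CPM or none, 12 right limbs as control, the animal block, a fold of 1.5, no trend and leaving out each limb. Python 3.11.15, numpy 2.4.6, pandas 2.3.3 and matplotlib 3.10.9 were used.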

Additional observations from a re-analysis of the deposited data

Results flagged for a closer look

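Among the 9 control limbs, Ube2c had 1 limb far from the rest: the highest value, 0.689 CPM in the right limb of atrophy replicate 2, stood off from the next (0.258 CPM) by 0.562 of the whole range on the log2(CPM + 1) scale, above Dixon's critical value for 9 limbs. It was 1 of 16 genes looked at in this way, and chance alone flags about 1 in 20. The level is close to the detection step, and Ube2c passed in no comparison.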

How the results depend on the processing

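Counts of members past the threshold after atrophy, recovery and repeated atrophy, and for recovery against atrophy and repeated atrophy against recovery, were 13, 4, 14, 9 and 13. Rescaling gave 1, 5, 4, 2 and 4, quantile normalization 3, 5, 6, 1 and 4, the replicate block 0, 0, 11, 0 and 0, and the block with rescaling, chosen after seeing the data, 0, 0, 6, 0 and 0. With quantile normalization 1502, 1684, 3658, 1496 and 2931 of the 14031 rows passed. A fold of 1.5 or a pseudocount of 10 gave 2 members in recovery (921 and 784 of all rows). Without 1 limb, the counts were 0 to 17, 1 to 1, 7 to 14, 0 to 12 and 5 to 11, the lowest without atrophy replicate 1 or 3, any recovery limb, repeated atrophy replicate 2, atrophy replicate 3 and recovery replicate 2. With 12 right limbs as control, Ube2j1 and Ube2v2 no longer passed after atrophy, nor Ube2l6 and Ube2r2 after repeated atrophy, and a pseudocount of 10 lost Ube2n and Ube2t in recovery and Ube2l6 after repeated atrophy. No filter or no trend lost Ube2j1 and added Ube2m after atrophy, and lost Ube2d3 for repeated atrophy against recovery. After atrophy, a pseudocount of 0.1 added Ube2t, and the filter on a mean of 10 CPM added Ube2g1, Ube2m and Ube2q1. Other changes of single members are not listed here. The other counts stayed within 1.5 times, and no member passed in the remaining comparisons under any setting. The cause was not tested. The block pairs the limbs of a rat.

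Rescaling turned the sign of 8 of the 30 differences after atrophy, 2 in recovery and 8 after repeated atrophy, among them Ube2m and Ube2r2 (0.36 to −0.02), which had passed after repeated atrophy. The sign changes below are those of 16 members chosen for closer description. Rescaled, Ube2b, Ube2m and Ube2s had differences of −0.31, −0.024 and −0.25 in atrophy limbs and of −0.29, −0.030 and −0.24 in repeated atrophy limbs, with Ube2g1 at −0.00018 in recovery. Under quantile normalization the first 3 were at −0.17, −0.057 and −0.28, and −0.17, −0.078 and −0.28. With the block, Ube2b was at −0.083 after atrophy and 0.12 in recovery, Ube2e2 at 0.036 in recovery and Ube2d1 at 0.037 after repeated atrophy. With 12 right limbs as control, Ube2d3, Ube2g1 and Ube2h were at −0.033, −0.094 and −0.0088 in recovery. Without 1 limb, after atrophy Ube2b ranged from −0.041 to 0.20, Ube2c from −0.093 to 0.33 and Ube2d1 from −0.42 to 0.19. In recovery Ube2c ranged from −0.00090 to 0.57, Ube2d3 from −0.017 to 0.15, Ube2e2 from −0.17 to 0.17, Ube2g1 from −0.0026 to 0.047 and Ube2h from −0.012 to 0.13. After repeated atrophy Ube2b ranged from −0.028 to 0.25, Ube2d1 from −0.20 to 0.14 and Ube2s from −0.058 to 0.28. The number of limbs, 3 a group, limits all of these.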
